A study of Mus musculus with 6 samples.

Results

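Fgf15, Fgf4 and Fgf8, which encode fibroblast growth factors (FGFs), were followed in mouse embryonic stem (ES) cells together with the receptor genes Fgfr1 and Fgfr2 and the ERK-induced genes Spry4, Spred1, Dusp6, Etv4 and Etv5. These genes were picked by name for their place in the pathway, and 10 of 10 were found among the 22602 genes listed with mRNA levels. The levels are RPKM, reads per kilobase of cDNA scaled to library depth, so genes of unequal length can be set side by side. 3 libraries came from the clones A6, B8 and C4. Each clone carries Flag-tagged mouse Sim2, joined through an IRES to Venus, at the ROSA26 locus under the hCMV*-1 promoter, which a tetracycline-regulated transactivator activates once the drug is removed. The other 3 libraries were independent cultures of the EB3 (EBRTcH3) line, from which the clones were made and which lacks the Sim2-Flag transgene. The paper reports that Venus was expressed without tetracycline in EB3 as well as in the clones. All 6 cultures grew on gelatin in medium with 15% serum and 1000 units/ml of leukemia inhibitory factor, and tetracycline was left out for 26 h before RNA was taken. The Sim2 group is therefore 1 culture of each of 3 clones, the EB3 group is 3 cultures of 1 line, and a difference between the groups holds both the transgene and whatever else separates the clones from the parental line. The comparison asks which mRNA levels differ when SIM2, a bHLH-PAS transcription factor, is expressed.

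FGFs bind receptor tyrosine kinases together with heparan sulfate chains on the cell surface, and the bound receptors recruit adaptors that pass the signal through RAS, RAF and MEK to the kinase ERK. In mouse ES cells FGF4 is the main ligand that the cells make for themselves, and the ERK signal it drives prepares them to leave the naive state. Active ERK switches on its own inhibitors, among them the Sprouty, Spred and dual-specificity phosphatase (Dusp) genes, and the ETS factors Etv4 and Etv5, so their mRNA is often read as a trace of recent FGF-ERK activity.

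Sim2 was at 168 to 212 RPKM in the clones and at 0.0917 to 0.130 RPKM in EB3, which matches the labels. Between 25095861 and 28269340 reads per library could be recovered from the values, and 1 read in a cDNA of 2 kb was worth at most 0.0199 RPKM. The chi-square statistic of the recovered reads, averaged over genes, was 2.65 for the cultures EB3-1 and EB3-2 but 65.5 for EB3-0 with EB3-1, and 11.0 to 34.7 for the pairs of clones. Its median over genes was 1.13 for EB3-1 with EB3-2, 9.08 for EB3-0 with EB3-1, and 2.90 to 7.27 for the pairs of clones. EB3-1 and EB3-2 were kept as separate cultures, so the calls below lean on a close pair. EB3-0 stood apart with cDNA length. Its median log2 difference from the mean of the other 2 cultures ran from 0.37 for cDNAs under 500 bases to -0.65 for those over 8000. The pluripotency genes Pou5f1 and Nanog were abundant in all 6 libraries (1502 to 1961 and 335 to 419 RPKM). Among markers of other states, 6 of 7 primed epiblast genes were tested and all 6 were lower in the clones, with Otx2 and Lef1 called. The summed primed list was 161 to 180 RPKM in the clones and 181 to 220 in EB3, and 0 of its genes were at 0 in every library. Primitive endoderm markers summed to 20.0 to 43.2 RPKM in the clones and 12.4 to 16.0 in EB3, and 0 of the 3 tested were called (3 at an unadjusted p under 0.05), and Lama1 made up most of the sum. The endoderm factor genes among the untested markers were low: Sox17 had 0.280 to 0.298 RPKM in the clones and 0.0239 to 0.117 in EB3, Gata4 had 0.846 to 0.980 and 0.518 to 0.745, and Gata6 had 0.399 to 0.644 and 0.156 to 0.562. Sox17 and Gata4 were higher in every clone than in every culture, with log2 differences of 0.51 (95% confidence interval 0.32 to 0.71) and 0.32 (0.07 to 0.58) in a limma fit to all listed genes, where neither was called (adjusted p = 0.110 and 0.306). The part of these markers in the results below was not tested. Neural markers summed to 95.6 to 116 RPKM in the clones and 139 to 152 in EB3, with 0 of 5 called and 2 at an unadjusted p under 0.05. Tubb3 made up most of this sum in every library, with a log2 fold change of -0.60 (limma, adjusted p = 0.0751). The 5 markers did not share a direction: 2 were positive and 3 negative, from -0.60 to 0.54.

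Of the 10 genes, 9 passed the filter of a mean of 1 RPKM, and 1 of them, Fgf15, was called lower in the Sim2 clones (limma, adjusted p under 0.05). 0 were called higher. Over all 11595 tested genes 0.354% were called lower and 0.345% higher. The groups did not overlap for Fgf15, Fgfr1, Dusp6 and Etv5, 4 of the 9, against 26.1% of all tested genes. At an unadjusted p under 0.05 there were also 4 of 9 (Fgf15, Fgfr1, Etv4 and Etv5), against 17.8%. The median log2 fold change of the 9 was 0.03, and that of all tested genes was -0.01. The signs were 6 positive and 3 negative, but Fgfr2, at 0.02, turned negative after quantile normalization or removal of length trends. This balance rested on single libraries: without EB3-0 there were 4 positive and 5 negative values with a median of -0.09, and without C4 there were also 4 and 5, with a median of -0.03.

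**Figure D1:**
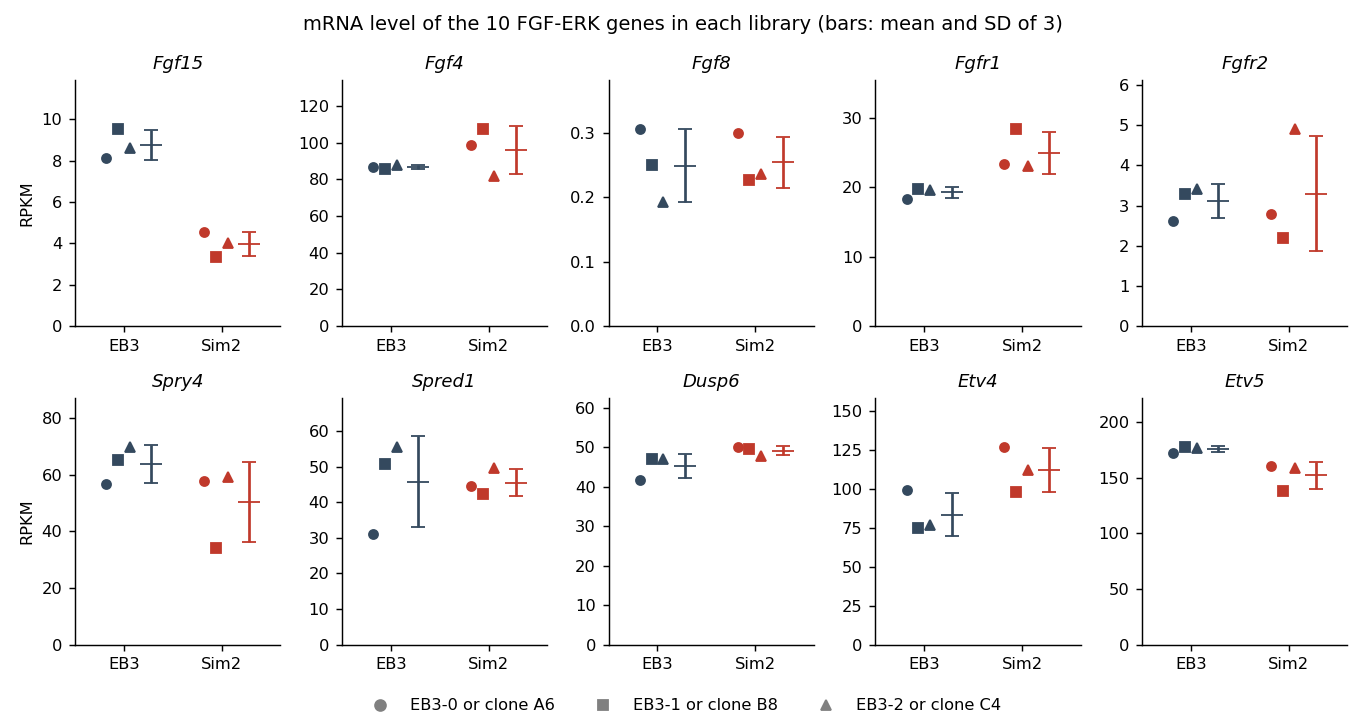
mRNA level (vertical axis, RPKM, starting at 0, with a separate scale for each gene) of the 10 genes in the 3 EB3 libraries and the 3 Sim2 clones. Each symbol is 1 library, and the bars give the mean and SD of 3. For Fgf15 the clones lie between 3.35 and 4.54 RPKM and EB3 between 8.15 and 9.54 RPKM.

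The ligand Fgf15 encodes the mouse counterpart of human FGF19, an endocrine FGF best known as a signal from gut to liver and also expressed in the early nervous system. It is listed on chromosome 7 at 152082437 to 152086856 of build mm9, on the plus strand. A6 had 4.54 RPKM, B8 3.35 and C4 4.01, and the EB3 cultures had 8.15, 9.54 and 8.61 RPKM. Every clone was below every EB3 culture, and the highest clone was well under the lowest culture. The clones averaged 3.97 ± 0.597 and the EB3 cultures 8.77 ± 0.708 RPKM (SD, n = 3 each). The log2 fold change was -1.06 with an SE of 0.15 and a 95% confidence interval of -1.39 to -0.72 (limma, adjusted p = 0.0283), which is 2.08-fold lower on the log2(RPKM + 0.5) scale. By the exact permutation test p was 0.1, and 3 libraries against 3 can give no smaller value. These levels rest on 156 to 206 reads in the clones and 402 to 461 in EB3. In RNA from whole cultures, fewer cells that express Fgf15 and less Fgf15 RNA per cell cannot be told apart.

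The size of the Fgf15 difference was stable and its call was not. Leaving out 1 library at a time gave log2 fold changes of -1.15 to -0.96, and the gene was called in 1 of 6 such fits, that without EB3-0 (limma, adjusted p = 0.0197). The adjusted p without A6, B8, C4, EB3-1 and EB3-2 was 0.0639, 0.0659, 0.101, 0.150 and 0.127. It was 0.130 with EB3-1 and EB3-2 averaged as 1 library and 0.0905 with all listed genes tested. Otx2 and Lef1, the called genes of the primed epiblast list, were lower in the same clones (-1.75 and -1.29 on the log2 scale), and the part of that difference in the Fgf15 result was not tested.

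Fgf15 lies beside other FGF genes, so the tested genes around it were examined. 13 listed genes have their lower coordinate within 500 kb of that of Fgf15, which is 1 of them, and 8 of the 12 others were tested. 0 of the 8 were called or had an unadjusted p under 0.05, their log2 fold changes ran from -0.20 to 0.16, and their adjusted p ranged from 0.551 to 0.928 (limma). Fgf4 ends 31.3 kb before Fgf15 starts and had a log2 fold change of 0.14. Fgf3, a further ligand of the same cluster, was at 1.31 RPKM in the clones and 1.24 in EB3, a log2 fold change of 0.07. On the other side of Fgf15, Oraov1 (0.03) and the cyclin D1 gene Ccnd1 (0.07) gave values close to 0. More distant, the apoptosis adaptor Fadd (0.16), Ppfia1 (0.13), the cortactin gene Cttn (0.04) and the endolysosomal channel gene Tpcn2 (-0.20) were likewise not called. The 4 untested genes, Ano1, 1810010D01Rik, Mrgprf and Mrgprd, had group means of at most 0.209 RPKM. Of these the channel gene Ano1 was lower in every clone (0.147, 0.0675 and 0.0846 RPKM) than in every culture (0.159, 0.268 and 0.200). In the limma fit to all listed genes its log2 difference was -0.24 (95% confidence interval -0.45 to -0.03, adjusted p = 0.346). Within 5 Mb, 74 other tested genes had a median log2 fold change of 0.00.

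**Figure D2:**
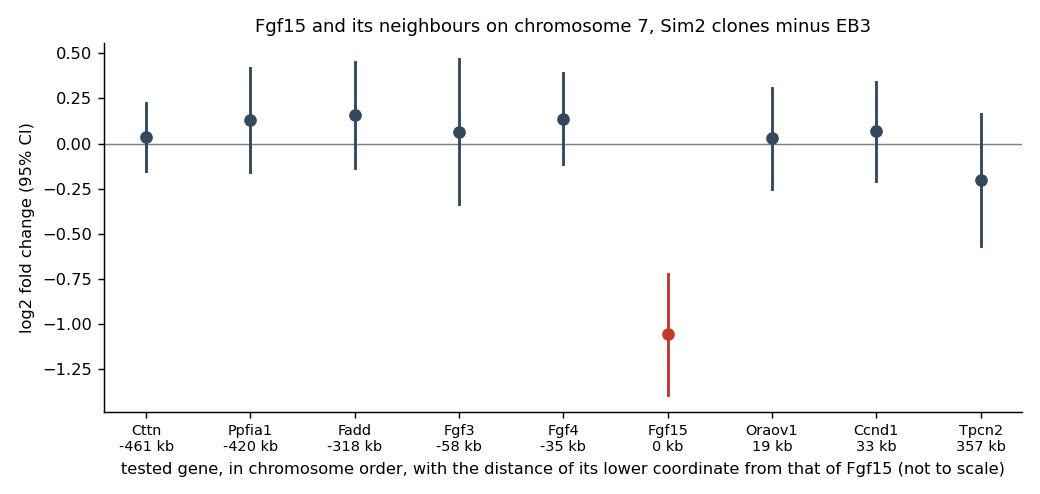
Log2 fold change, Sim2 clones minus EB3, with its 95% confidence interval from limma (vertical axis) for Fgf15 and the 8 other tested genes within 500 kb. Genes are in chromosome order, with spacing not to scale. Under each name is the distance of its lower coordinate from that of Fgf15. Fgf15 is at -1.06 and the other 8 genes lie between -0.20 and 0.16.

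Fgf4, the autocrine ligand of ES cells, is listed on chromosome 7 at 152047291 to 152051148, plus strand. The clones A6, B8 and C4 had 98.8, 107 and 81.8 RPKM, against 86.7, 85.5 and 87.9 RPKM in the EB3 cultures. A6 and B8 were above the EB3 range and C4 below it, and the 3 EB3 cultures were nearly equal. The means were 96.0 ± 13.0 and 86.7 ± 1.20 RPKM (SD, n = 3 each). The log2 fold change was 0.14 (SE 0.11, 95% confidence interval -0.11 to 0.39, limma adjusted p = 0.557). The SD among the clones exceeded the difference of the means, and the value was 0.05 without B8 and 0.25 without C4.

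The Fgf4 gene carries in its last exon the ES cell enhancer at which SOX2 and OCT4 bind next to each other. The stretch that holds this composite site is shown because the study lists a SIM2-bound region that spans it. It lies at chr7:152050293-152050322 of mm9, plus strand, in the 3′ untranslated part of exon 3 of 3, 1456 bases after the end of the coding sequence. Capitals mark the SOX motif CTTTGTT and the octamer-like motif ATGCTAA, which are 3 bases apart.
Fgf4 composite site: aaaactCTTTGTTtggATGCTAAtgggata
The pair of motifs in this order, on either strand with at most 10 bases between them, was found 1 time in Fgf4. It was in 30 of 36723 windows of the same length (3858 bases) along chromosome 7, or 0.0817%. The motifs were searched with the letters they have in this stretch, so the match in Fgf4 was fixed in advance. The share of windows describes how common these letters are and tests nothing about Fgf4. The Fgf4 mRNA level did not differ beyond the spread between the clones in cells with and without the Sim2 transgene.

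Fgf8, a ligand of gastrulation and of embryonic signalling centres, was close to silent. It is listed on chromosome 19 at 45811288 to 45817374, minus strand, with 0.299, 0.227 and 0.236 RPKM in A6, B8 and C4 and 0.306, 0.250 and 0.192 RPKM in EB3. These values stand for 6 to 10 reads a library, and the groups overlapped. The gene did not pass the filter and was not tested with the others. In the fit to all listed genes its log2 difference was 0.01 (95% confidence interval -0.18 to 0.20, limma adjusted p = 1).

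Of the receptors, Fgfr1, the receptor through which most FGF4 signal passes in ES cells, was at higher levels in each clone than in any EB3 culture. Its position is chromosome 8, 26629244 to 26686186, plus strand. A6, B8 and C4 had 23.3, 28.4 and 23.1 RPKM, and the EB3 cultures 18.4, 19.8 and 19.6. The groups did not overlap, with B8 the highest library. Means of 24.9 ± 3.01 and 19.2 ± 0.758 RPKM (SD, n = 3 each) gave a log2 fold change of 0.36 (SE 0.11, 95% confidence interval 0.11 to 0.61), which did not pass the adjustment (limma, adjusted p = 0.154). The exact permutation p was 0.1. With the GC and cDNA length trends of each library removed, the value was 0.18.

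Fgfr2, which is most used in primitive endoderm and trophoblast, was at a far lower level than Fgfr1 in both groups. It is listed on chromosome 7 at 137305965 to 137410322, minus strand. A6, B8 and C4 had 2.80, 2.19 and 4.91 RPKM, against 2.62, 3.29 and 3.42 RPKM in EB3. C4 was the highest of the 6 libraries and B8 the lowest, so the clones spanned the EB3 range on both sides. The log2 fold change was 0.02 (SE 0.26, 95% confidence interval -0.57 to 0.60, limma adjusted p = 0.983), and its sign depended on C4: without that clone it was -0.27. It was also negative after quantile normalization, after removal of length trends, and without EB3-0 (-0.09).

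Among the inhibitors, 0 of Spry4, Spred1 and Dusp6 were called in any of the 17 alternative analyses that were run. Spry4, a Sprouty protein gene that restrains signalling from receptor tyrosine kinases to RAS, is listed on chromosome 18 at 38745919 to 38760922, minus strand. A6, B8 and C4 had 57.7, 34.1 and 59.3 RPKM, against 56.6, 65.2 and 69.7 RPKM in EB3. B8 alone lay far below the rest, and A6 and C4 lay inside the EB3 range. The log2 fold change of -0.38 (SE 0.20, 95% confidence interval -0.84 to 0.09, limma adjusted p = 0.385) became -0.12 without B8.

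Spred1, a membrane-bound relative of the Sproutys that recruits neurofibromin to RAS, is listed on chromosome 2 at 116947186 to 117005072, plus strand. Its level was 44.7, 42.2 and 49.6 RPKM in A6, B8 and C4 and 31.2, 50.8 and 55.4 RPKM in EB3. The spread within EB3 was wider than that among the clones because EB3-0 was low. The means were almost equal, 45.5 ± 3.77 and 45.8 ± 12.9 RPKM (SD, n = 3 each), and the log2 fold change was 0.03 (SE 0.20, 95% confidence interval -0.43 to 0.49, limma adjusted p = 0.957). Without EB3-0 the value was -0.22 (limma, adjusted p = 0.174) and without C4 it was -0.03.

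Dusp6, the phosphatase gene whose product removes phosphate from ERK in the cytoplasm, was the steadiest of the 3 inhibitors. It is listed on chromosome 10 at 98725865 to 98730123, plus strand, with 49.9, 49.6 and 47.8 RPKM in A6, B8 and C4 and 41.7, 47.0 and 47.1 RPKM in EB3. The ranges did not overlap, although C4 and EB3-2 differed by less than 1 RPKM. Its log2 fold change was 0.12 (SE 0.09, 95% confidence interval -0.08 to 0.32, limma adjusted p = 0.524), and the exact permutation p was 0.1. Without EB3-0, the lowest culture, it was 0.06. 

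The ETS factors Etv4 and Etv5, transcriptional activators that FGF signalling induces in many embryonic tissues, gave values of opposite sign. Etv4 is listed on chromosome 11 at 101631056 to 101646624, minus strand, with 127, 97.9 and 112 RPKM in A6, B8 and C4 and 99.4, 74.7 and 76.5 RPKM in EB3. The groups overlapped in 1 pair of libraries, since EB3-0 was above B8. The log2 fold change was 0.43 (SE 0.14, 95% confidence interval 0.11 to 0.75, limma adjusted p = 0.172), and the exact permutation p was 0.2. Without EB3-0 the value was 0.56 and Etv4 was called (limma, adjusted p = 0.0401).

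Etv5 was the most abundant of the 10 genes. On chromosome 16, 22381386 to 22439643, minus strand, it had 160, 138 and 159 RPKM in A6, B8 and C4 and 173, 177 and 177 RPKM in EB3. Every clone was below every EB3 culture, and the 3 cultures were within 5 RPKM of each other. On the log2 scale the difference was -0.21 (SE 0.09, 95% confidence interval -0.42 to -0.0004, limma adjusted p = 0.280), and it did not pass the adjustment. The Etv5 transcript has 3 alignments of at least 200 bases at 90% identity elsewhere in mm9, the longest of 1778 bases at 98.4% identity on chromosome 10. The alignments were not merged by position, so the number of separate copies may be smaller. How reads with several positions were counted is not given in the sources used here, so the Etv5 level is uncertain. The other 9 genes had 0 such alignments.

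**Figure D3:**
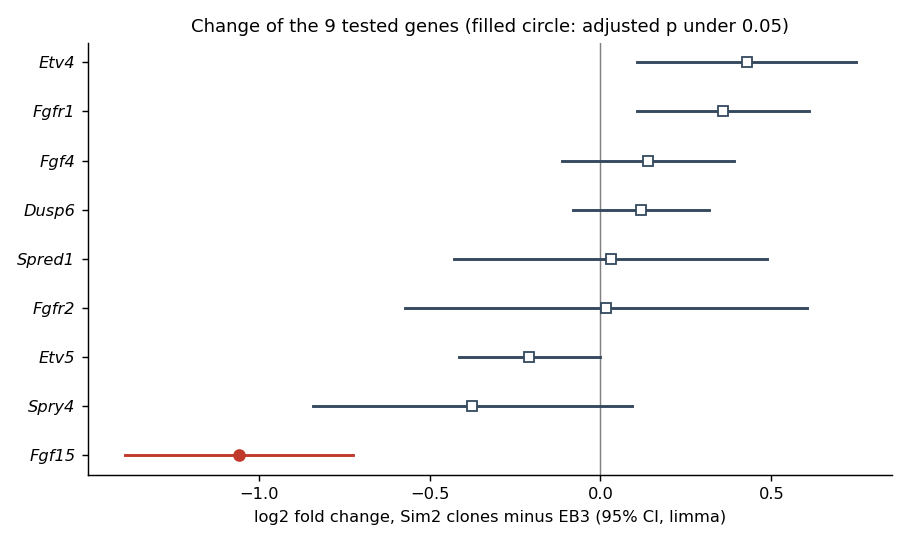
Log2 fold change, Sim2 clones minus EB3 (horizontal axis), of the 9 tested genes, with 95% confidence intervals from limma. Fgf15 (-1.06, filled circle) is the gene called at an adjusted p under 0.05, the intervals of Fgfr1 and Etv4 lie above 0 without a call, and the estimate for Fgfr2 (0.02) turned negative under quantile normalization or removal of length trends.

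RPKM is a level per length, so the genes can be ranked. In EB3 the order was Etv5 (176 RPKM), Fgf4 (86.7), Etv4 (83.5), Spry4 (63.8), Spred1 (45.8), Dusp6 (45.3), Fgfr1 (19.2), Fgf15 (8.77), Fgfr2 (3.11) and Fgf8 (0.249). The ranges of neighbours in this order overlapped for Fgf4 with Etv4 and for Spred1 with Dusp6. In the clones the order was Etv5 (152), Etv4 (112), Fgf4 (96.0), Spry4 (50.4), Dusp6 (49.1), Spred1 (45.5), Fgfr1 (24.9), Fgf15 (3.97), Fgfr2 (3.30) and Fgf8 (0.254). There the ranges of Etv4 and Fgf4, of Spry4, Dusp6 and Spred1 in turn, and of Fgf15 and Fgfr2 overlapped. Fgf15, which stood clear of Fgfr2 in EB3, thus overlapped it in the clones.

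The clones did not move as a block. B8 gave the lowest value of the 6 libraries for Fgf15, Fgfr2, Spry4 and Etv5 and the highest for Fgf4 and Fgfr1. Against the EB3 mean, Spry4 was at -0.89 on the log2 scale in B8 and at -0.14 and -0.10 in A6 and C4. Fgfr2 was at -0.42 in B8 and 0.59 in C4. Etv4 was at 0.61 in A6 and 0.24 in B8. Fgf15 was at -0.88, -1.26 and -1.04 in A6, B8 and C4, while the EB3 cultures were within -0.10 to 0.12 of their mean. EB3-0 carried the largest deviation within EB3, -0.51 for Spred1, and was at 0.26 for Etv4.

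**Figure D4:**
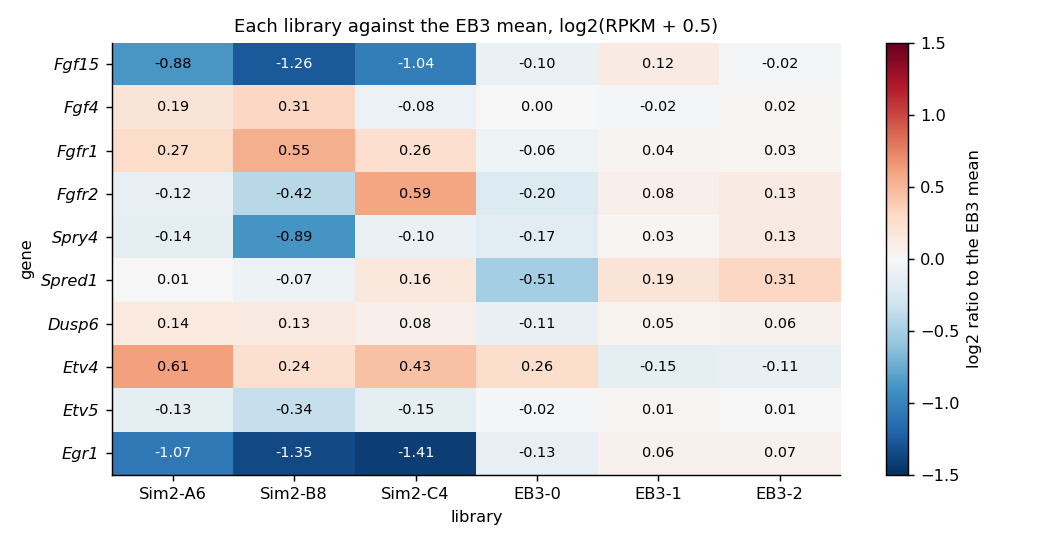
Log2 ratio of each library (horizontal axis) to the EB3 mean, on the log2(RPKM + 0.5) scale, for the 9 tested genes and the early gene Egr1 (vertical axis). Blue marks lower and red higher values. Fgf15 and Egr1 are at -0.88 or lower in all 3 clones, and Spry4 reaches -0.89 in B8 alone.

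The rest of the pathway was described with 6 gene lists, which hold 111 genes, the 10 included. 109 were in the table and 83 were tested. Fgf15 and Egr1 were called lower, 2.41% of the 83 against 0.699% of all tested genes in either direction, and 0 were called higher. The groups did not overlap for 24 of them (28.9%, against 26.1%). An unadjusted p under 0.05 in limma was found for 20 of the 83, against 17.8% of all tested genes. That share is the one to set beside the same counts for single lists below. The median log2 fold change was 0.11, beside -0.01 for all tested genes. Without EB3-0 this median was 0.01 and without B8 it was 0.06.

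Egr1, an immediate early gene that ERK induces through serum response factor, had the largest change in the lists. Its position is chromosome 18, 35020861 to 35024610, plus strand. In A6, B8 and C4 it had 8.22, 6.67 and 6.37 RPKM, against 16.3, 18.6 and 18.7 RPKM in EB3. Every clone was below every culture. The means were 7.09 ± 0.996 and 17.8 ± 1.35 RPKM (SD, n = 3 each). On the log2 scale the clones were at -1.28 relative to EB3 (SE 0.13, limma adjusted p = 0.0114), and the exact permutation p was 0.1. The gene was called in 3 of 6 fits that left out 1 library, with an adjusted p of up to 0.0854, and had 0.0715 with EB3-1 and EB3-2 averaged. Of the 21 other ERK-responsive and early genes 17 were tested and 0 were called. 12 were positive and 5 negative (9 and 8 after removal of GC and length trends), and 4 had an unadjusted p under 0.05 (Etv4, Etv5, Elk3 and Phlda1). The AP-1 subunit gene Jun had the largest positive value, 0.59, with 5.71 RPKM in B8 and 2.45 and 2.90 in A6 and C4 (limma, adjusted p = 0.322). The cyclin D1 gene, whose lower coordinate is 33.4 kb from that of Fgf15 and which is also on this list, was at 130 and 123 RPKM.

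**Figure D5:**
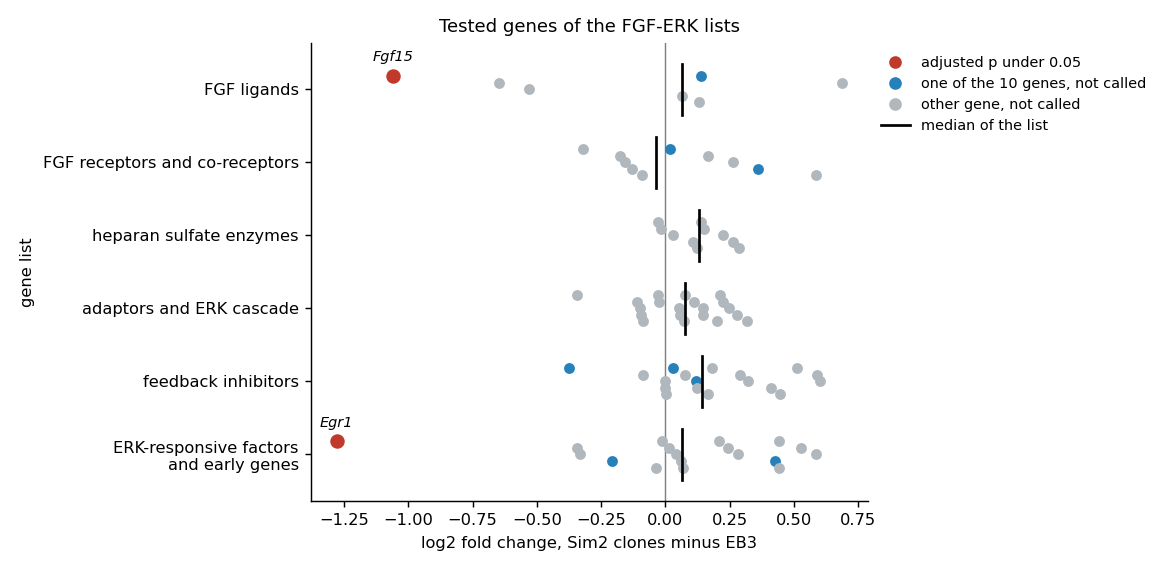
Log2 fold change, Sim2 clones minus EB3 (horizontal axis), of the tested genes in the 6 FGF-ERK lists (vertical axis). Each point is 1 gene, black lines are list medians, red points were called, and blue points are members of the group of 10 that were not called. Fgf15 (-1.06) and Egr1 (-1.28) lie apart from the other points, which run from -0.65 to 0.69.

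Of 22 FGF ligand genes 7 were tested, and the other 15 were below a mean of 1 RPKM, with Fgf6 and Fgf16 listed at 0 in all 6 libraries. Fgf4 was the most abundant ligand, and Fgf17, singled out here after its values were seen, followed at 56.8, 64.6 and 81.1 RPKM in the clones and 68.7, 56.2 and 58.4 in EB3. The 54 other tested genes within 5 Mb of Fgf17 had a median log2 fold change of 0.23, and 68.5% of them were positive. The largest positive value was that of Fgf10, a ligand of lung and limb budding, with 1.09, 2.19 and 1.05 RPKM in the clones and 0.361, 0.941 and 0.779 in EB3. The ranges did not overlap, but the log2 fold change of 0.69 was not called (limma, adjusted p = 0.262). At an unadjusted p under 0.05 there were 4 of 7 ligands, Fgf15, Fgf10, Fgf1 and Fgf18, against 17.8% of all tested genes. Fgf1 was lower in each clone (1.03, 1.43 and 1.64 RPKM) than in each culture (1.82, 2.98 and 2.50), with a log2 fold change of -0.65 (limma, adjusted p = 0.172). Fgf18 had 2.28, 3.51 and 4.08 RPKM in the clones and 5.34, 4.00 and 5.33 in EB3, and its ranges overlapped (-0.53, limma adjusted p = 0.252). Fgf15 was the 1 ligand of the 7 that was called.

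Receptors and co-receptors divided evenly. 10 of 15 were tested, 5 positive and 5 negative (4 and 6 after quantile normalization or removal of length trends), with 0 called by limma and 2 at an unadjusted p under 0.05. The heparan sulfate proteoglycan gene Sdc4 was at 21.2 and 23.9 RPKM in the clones and EB3 (log2 fold change -0.18). Flrt3, whose product binds FGF receptors, was at 1.97 and 1.15 RPKM (0.59, limma adjusted p = 0.229), and the glypican gene Gpc3 had the most negative value (-0.32). Among the enzymes that build or trim heparan sulfate 10 of 11 were tested, with 0 called and 1 (Extl3) at an unadjusted p under 0.05. They ranged from -0.03 for the sulfotransferase gene Ndst2 to 0.28 for the sulfatase gene Sulf1, and the related Sulf2, the most abundant of them, was at 0.15.

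Of the adaptors and the kinase cascade 20 of 22 were tested, 0 were called (3 at an unadjusted p under 0.05), and the median was 0.08, with 13 positive and 7 negative values. Without EB3-0 the median was 0.02, with 10 of each sign, and it was 0.05 without B8 and 0.13 without EB3-1. The docking protein gene Gab1 was the most abundant, with 104 ± 8.86 and 111 ± 10.3 RPKM (SD, n = 3 each). Nras, a RAS gene, was lower in each clone than in each culture, with 47.3, 42.0 and 48.7 against 52.8, 60.7 and 62.1 RPKM. Its log2 fold change of -0.34 was not called (limma, adjusted p = 0.147), but was without EB3-0 (-0.42, limma adjusted p = 0.0411). The kinase gene Rps6ka2 had the largest positive value, 0.32, which came from B8 (16.0 RPKM, against 8.22 to 9.03 in the other 5 libraries).

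All 18 listed inhibitor genes in the table were tested, and 0 were called by limma, with 5 at an unadjusted p under 0.05. 14 were positive and 4 negative, with a median of 0.14, and their summed level was 484 to 501 RPKM in the clones and 407 to 439 in EB3. That balance rested on EB3-0: without it 8 were positive and 10 negative, with a median of -0.04, while without EB3-1 or EB3-2 the median was 0.23 or 0.25. Spry2, the most abundant, had 111, 125 and 140 RPKM in the clones and 96.5, 101 and 102 in EB3, without overlap (0.32, limma adjusted p = 0.164). The 14 other tested genes within 5 Mb of Spry2 had a median log2 fold change of 0.15, and 71.4% of them were positive. The part of this surrounding difference in the Spry2 value was not tested. In Dusp9, which encodes an ERK phosphatase on the X chromosome, the EB3 cultures themselves differed, with 103 RPKM in EB3-0 and 52.4 and 52.5 in the other 2, beside 113, 105 and 83.9 in the clones. Its log2 fold change was 0.60 (limma, adjusted p = 0.267), and without EB3-0 it was 0.92 and called (limma, adjusted p = 0.0213). Cbl, a ubiquitin ligase gene picked after its values were seen, was at 1.77 RPKM in EB3-0 and at 7.79 to 8.34 RPKM in the other 5 libraries.

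For Fgf15 the genes with the most similar pattern were sought, by the root mean square difference of centred log2 values over the 6 libraries. The nearest were Gpr133, an adhesion receptor gene (0.12), 2810417H13Rik (0.13), the ubiquitin-conjugating enzyme gene Ube2d3 (0.14), the fatty acid elongase gene Elovl4 (0.14) and Prrc1 (0.14). The median over all tested genes was 0.56. Of the group of 10, Spry4 came closest at 0.39 and Etv5 next at 0.43, and Fgf4, next to Fgf15 on the chromosome, was at 0.63. The 6 points share their libraries, and the measure is a description.

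7 of the 10 genes (Fgf15, Fgf4, Fgfr1, Spry4, Spred1, Etv4 and Etv5) are on the study's list of genes assigned to SIM2-bound regions from chromatin immunoprecipitation. Of all tested genes 10.1% are. Of these 7, Fgf15 was called. The study assigned a region between genes or in an intron to the closest gene on each side. A listed gene therefore need not be the nearest to its region, and a single region may list a gene on both sides. RefSeq promoter windows were taken as the 250 bases before a start in build GRCm38.p6. No window of Fgf15, Fgf8, Fgfr1, Spry4 or Etv4 was searched, so the motif counts leave these genes out. The windows used were 6 in all, from 5 of the 10 genes (Dusp6, Etv5, Fgf4, Fgfr2 and Spred1). They were searched on both strands for ACGTG, the core bound by SIM2 with its partner ARNT, for CACGTG, an E-box that contains this core, and for the ETS motif CCGGAAG. The core was found 1 time in Etv5, 133 bases before the start, and 1 time in Spred1, 115 bases before it. It was in 16.6% of all 32851 windows of that length. The E-box (in 6.02% of all windows) and the ETS motif (6.91%) were in 0 of the 6. The windows with a match are shown in the direction of transcription, with the core, on either strand, in capitals.
Etv5, chr16:22439571-22439820, minus strand: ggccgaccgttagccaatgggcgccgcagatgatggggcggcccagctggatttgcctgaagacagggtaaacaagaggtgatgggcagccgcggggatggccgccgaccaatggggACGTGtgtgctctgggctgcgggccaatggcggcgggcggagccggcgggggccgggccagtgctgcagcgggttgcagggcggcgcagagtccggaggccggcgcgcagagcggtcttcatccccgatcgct
Spred1, chr2:117120821-117121070, plus strand: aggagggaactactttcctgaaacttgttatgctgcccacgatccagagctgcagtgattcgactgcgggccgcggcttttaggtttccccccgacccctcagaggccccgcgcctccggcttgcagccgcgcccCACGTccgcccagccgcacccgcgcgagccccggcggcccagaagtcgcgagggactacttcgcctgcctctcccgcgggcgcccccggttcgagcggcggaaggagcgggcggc
A match of these letters is a description and not a measured site. Etv5 was at -0.21 and Spred1 at 0.03 on the log2 scale in the comparison above, both without a call.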

How the data were processed

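Messenger RNA of 6 mouse ES cell cultures was sequenced as paired reads. The authors mapped the reads to mm9 with BWA (version not given in the sources used here), derived exon coverage by a pipeline of their own and deposited it as RPKM. Whether counting used the strand is not given. Every per-sample column was used. Groups and replicate names came from the sample labels.

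Within each library, RPKM times cDNA length moved in equal steps for 100% of values (tolerance 1e-06 steps), and these steps were taken as reads. More genes had 2 reads than 1 (742 and 199 in A6), so mates may be counted apart, and the number of fragments may be lower. Listed positions of 21655 symbols were compared with an mm9 annotation, and 99.0% overlapped their gene. Positions are printed 1-based.

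Values were transformed to log2(RPKM + 0.5), which understates the change of low genes. The 11595 genes (51.3%) with a mean of at least 1 RPKM were tested with limma 3.58.1 in R 4.3.3 (lmFit, eBayes with an intensity trend, no covariate), with Benjamini-Hochberg adjustment and a threshold of 0.05. The script was tested on simulated data. Single genes also had a 2-sided exact permutation test, whose smallest p is 0.1. The clones are 1 culture each, so p-values set the difference against the spread among 3 clones and among 3 cultures of 1 line. Trends with cDNA length and GC content (known for 96.1% of tested genes) were fitted by natural splines (5 degrees of freedom) and subtracted. Tables were handled in Python 3.11.15 with pandas 2.3.3.

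The genes and lists were chosen with earlier results of these data known, so no list was tested. Genes named were the 10, every called gene of each pathway list with its most abundant gene and its largest rise and fall, all genes within 500 kb of Fgf15, the 5 genes most like it, Sim2 and Arnt, and at most 2 genes of each marker list. Arnt was at 19.5 and 19.8 RPKM in the clones and EB3. Markers of streak and mesoderm (2 tested), trophoblast (0 tested) and fibroblasts (1 tested) gave 0 calls in limma, as did the 5 core pluripotency genes, and 1 of these 8 had an unadjusted p under 0.05. Otx2, Lef1, Gata4, Gata6, Sox17, Fgf1, Fgf18, Extl3, Elk3 and Phlda1 were named after their values were seen.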

Additional observations from a re-analysis of the deposited data

How the results depend on the processing

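17 alternatives were run. The Fgf15 log2 fold change kept its sign in all of them (-1.15 to -0.96) and its call in 10. It was not called without a filter on low values (-1.06) or with EB3-1 and EB3-2 averaged (-1.03), and leaving out 1 library at a time gave -1.15 to -0.96. Fgf4, Fgfr1, Spry4, Dusp6 and Etv5 kept their sign and stayed without a call in all 17. Fgfr2 was -0.0058 after quantile normalization, -0.052 with the cDNA length trend removed and -0.082 with GC and length trends removed, and -0.27 to 0.23 with 1 library left out. Spred1 then ran from -0.22 to 0.19 and Etv4 from 0.34 to 0.56. The number of called genes, 81, was 23 without a filter, 6 with EB3-1 and EB3-2 averaged, 238 with the length trend removed, 209 with GC and length trends removed, 30 without an intensity trend, and 6 to 694 with 1 library left out, where 694 was without EB3-0. For the pathway lists, 2 calls became 0 without a filter and 0 with EB3-1 and EB3-2 averaged, and 0 to 5 with 1 library left out. The cause of these shifts was not tested. voom on the recovered reads, added after the data had been seen, called 64 genes, Fgf15 included. The planned edgeR and DESeq2 fits to recovered reads were not run, and voom was fitted to these reads instead. No paired analysis was possible because the clones and the EB3 cultures share no replicate numbers. Fgf8 rests on the fewest reads.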
